A study of Rattus norvegicus with 2 samples.

Results

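The genes described are the cell cycle and DNA replication genes of A7r5, a long-established cell line grown from the aortic smooth muscle of embryonic rats. They were taken by name from the probe set annotation of the array, with a rule that covers cyclins A, B, D and E, numbered cyclin-dependent kinases (CDKs) and genes named after them, CDK inhibitors, genes named Cdc with a number, the Mcm2 to Mcm7 helicase subunits, the Bub, Mad2-like, aurora, polo-like and E2f families, and Pcna, Top2a, Mki67, Rrm1 and Rrm2. Genes of the Cdc42 family and Cdkn1c were left out. Several central genes the rule covers, among them Ccna2, Cdk2, Cdc6, Cdc45, Rrm2, Bub1 and the activator E2Fs E2f1, E2f2 and E2f3, were named by no usable probe set and are not analysed here. The rule found 104 probe sets of 76 genes, among 10411 genes with a probe set of their own. Where a gene had several probe sets, the brightest stood for it.

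Both groups were A7r5 cells infected for 72 hours with an adenovirus at a multiplicity of infection of 10, where 1 stood for 100 particles per cell, in medium with 5.5 mM glucose. The control virus was empty and the other carried a human GLUT1 cDNA. GLUT1 lets glucose pass the cell membrane along its gradient. RNA from 3 separate days was pooled into 1 sample per group, and each pool was read on 1 array. All cells had therefore met a virus, and the days within a pool cannot be told apart. The study asked how more GLUT1 alters gene expression in smooth muscle cells, and for the genes below the comparison is 1 array against 1. No difference has a replicate check, no p-value was computed, and the number of arrays limits the precision.

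Of the smooth muscle markers with a probe set, 6 of 8 passed the brightness filter described below, among them Acta2, the smooth muscle actin, at 16303 and 16687 (control and GLUT1). Myh11, the smooth muscle myosin heavy chain, did not pass, at 227 and 228. Markers of endothelial cells (1 of 4), leukocytes (2 of 6), epithelium (1 of 4) and skeletal or cardiac muscle (1 of 5) mostly lay below it. Those that passed were Esam, C1qb, Cd14, Krt8 and Acta1. Krt8 was bright at 6193 and 6500, and C1qb, at 1352 and 1014, lay 2.83 local spreads from 0. The part of either in the results below was not tested. The rat probe set of Slc2a1, the gene of GLUT1, read 2902 and 3121. The sources used here do not say whether it binds the human cDNA, so it does not check the labels.

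A cell that divides passes through G1, in which D-type cyclins with Cdk4 and Cdk6 and then cyclin E with Cdk2 phosphorylate the retinoblastoma protein and free E2F factors. E2F targets such as the MCM helicase then serve DNA replication in S phase, and cyclin B with Cdk1 drives mitosis under the control of the spindle checkpoint and the anaphase-promoting complex. Vascular smooth muscle cells of a healthy vessel wall rarely divide, but they keep the ability to re-enter the cycle, and cultured lines proliferate.

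Many promoters of S phase genes are known to carry E2F sites, and many of mitotic genes other short elements. These were searched in RefSeq's promoter table (build GRCr8), in the window from 250 bases before to 50 bases after each gene's start. Promoters were found for 62 of the 76 genes. The letters searched, on both strands, were TTTCGCGC, TTTCCCGC, TTTGGCGC and TTTGCCGC for E2F sites, TTTGAA for the cell cycle homology region (CHR) of mitotic promoters, and CCAAT for the box bound by the factor NF-Y. Overlapping matches of the same element counted once. E2F letters were in 5 of the 7 replication promoters and in 1 of the 16 of G2 and mitosis, against 2.25% of all 27457 promoters in the table. The MCM genes accounted for those 5, namely Mcm2, Mcm3, Mcm5, Mcm6 and Mcm7, and the promoters of Pcna and Rrm1 held none of these letters in the window. CHR letters were in 9 of the 16 mitotic and 1 of the 7 replication promoters, against 18.1% of all. CCAAT was in 11 of the 16 mitotic and 6 of the 7 replication promoters, against 37.7% of all, and 2 or more copies were in 7 and 4 of them, against 11.3%. A match of letters is a description of the sequence and not a measured site.

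The upstream 250 bases of 4 promoters are printed below, 2 of S phase and 2 of mitosis, because they show where the 3 elements lie. They read 5′ to 3′ and end at the base before the start, with matches to the 3 elements in capitals. Mcm6 lies at chr13:42404353-42404602 on the minus strand, Mcm7 at chr12:22163179-22163428 on the minus strand, Ccnb2 at chr8:79981659-79981908 on the minus strand and Cdk1 at chr20:19265043-19265292 on the plus strand (GRCr8).
Mcm6: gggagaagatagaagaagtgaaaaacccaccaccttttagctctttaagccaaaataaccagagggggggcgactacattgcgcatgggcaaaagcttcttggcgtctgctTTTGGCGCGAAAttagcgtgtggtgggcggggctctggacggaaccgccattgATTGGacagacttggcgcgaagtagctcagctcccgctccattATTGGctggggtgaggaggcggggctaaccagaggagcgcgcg
Mcm7: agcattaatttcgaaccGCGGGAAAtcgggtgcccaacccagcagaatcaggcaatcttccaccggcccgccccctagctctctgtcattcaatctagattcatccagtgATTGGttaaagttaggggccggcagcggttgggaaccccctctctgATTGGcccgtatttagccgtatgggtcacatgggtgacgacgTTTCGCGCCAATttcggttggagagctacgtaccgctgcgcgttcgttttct
Ccnb2: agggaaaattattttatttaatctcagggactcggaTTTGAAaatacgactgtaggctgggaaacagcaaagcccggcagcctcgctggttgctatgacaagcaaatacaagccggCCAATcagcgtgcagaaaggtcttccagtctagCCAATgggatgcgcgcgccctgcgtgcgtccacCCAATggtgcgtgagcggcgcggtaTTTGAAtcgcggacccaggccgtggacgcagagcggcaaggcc
Cdk1: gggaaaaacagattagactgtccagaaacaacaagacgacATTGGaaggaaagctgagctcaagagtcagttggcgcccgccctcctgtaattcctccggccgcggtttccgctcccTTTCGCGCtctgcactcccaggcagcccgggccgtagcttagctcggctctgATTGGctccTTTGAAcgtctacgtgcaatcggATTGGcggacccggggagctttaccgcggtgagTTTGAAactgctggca

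In Mcm6 the E2F letters were read on both strands of 1 stretch, 139 bases before the start, and in Mcm7 the E2F match nearest to the start overlapped a CCAAT match. Ccnb2 held CHR letters 43 bases before the start and 3 CCAAT matches upstream of that copy. Cdk1 held all 3 elements and was the 1 mitotic promoter of the 16 with E2F letters. Among measured genes with a promoter, the 7 with E2F letters had ratios with a median of 0.096 on the log2 scale and 6 positive values. The 47 without had a median of 0.027 and 29 positive values, and 52.1% of all measured genes lay above 0. The 7 genes were Mcm2, Mcm3, Mcm5, Mcm6, Mcm7, Cdc25a and Cdk1. Most of them are MCM genes, so this contrast largely repeats the MCM ratios given below and is not a separate result. With CHR letters the median was 0.051 over 13 genes, 8 of them positive, and without them 0.028 over 41, 27 of them positive. With CCAAT it was 0.051 over 29 genes, 20 of them positive, and without it 0.023 over 25, 15 of them positive. These medians come from the same 2 arrays and were not tested.

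Cell cycle genes were read well on both arrays and differed little between them. Intensities at or below 175, the 25th percentile, were set to that floor, log2 was taken, and a gene counted as measured where its mean log2 intensity reached the median over the whole array, 8.99 or an intensity of 507. By this filter 66 of the 76 genes were measured, against 58.7% of all genes. None of the 66 differed by 2-fold in either direction, where the background over 6114 measured genes was 0.0164% higher and 0.0% lower. The log2 ratio, GLUT1 over control, was above 0 in 40 and below 0 in 26 of the 66, or 60.6%, where 52.1% of all measured genes lay above 0. The median log2 ratio was 0.028 over the 66 genes and 0.0063 over all measured genes. Ratios ran from -0.24 for Mad2l1 to 0.46 for Cdkn2a, and 64 of the 66 lay within 0.25 of 0, as did 92.5% of all genes.

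**Figure D1:**
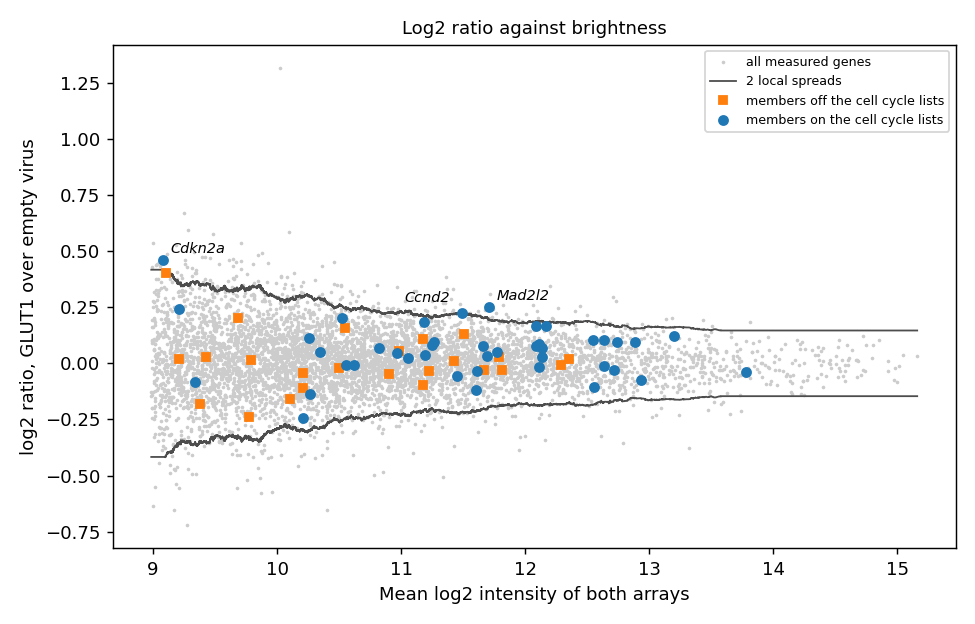
Log2 ratio of GLUT1 over empty virus (vertical axis) against the mean log2 intensity of both arrays (horizontal axis). Grey points are all 6114 measured genes, blue circles the 42 members on the cell cycle lists, orange squares the other 24 members, and the lines lie 2 local spreads from 0. Cdkn2a, Ccnd2 and Mad2l2 are the members beyond the lines, and Cdkn2a passed the brightness filter only through its GLUT1 value.

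The size of a ratio was also set against the local spread, the scaled median absolute deviation of the ratios of the 501 measured probe sets nearest in brightness. Array noise and real differences both enter it, and among the 66 genes it ran from 0.073 to 0.21. A ratio larger than 1 local spread was seen in 23 of the 66 genes, or 34.8%, with a background of 31.3%. Larger than 2 local spreads were 3 genes, or 4.55%, with a background of 5.48%. Both shares lie near those of all genes. The 3 genes were Mad2l2 at 2.56, Cdkn2a at 2.21 and Ccnd2 at 2.08 local spreads, all higher on the GLUT1 array. Of these, Cdkn2a passed the filter only through its GLUT1 value, since its control value of 461 lay under 507. Its place among the 3 and its direction are therefore partly set by the filter.

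Not all of these genes act in the cycle, since names such as Cdk and Cdc are shared with kinases and factors of transcription, splicing and other processes. The 42 measured genes on the cell cycle lists had log2 ratios with a median of 0.059, of which 28 were positive and 14 negative. That is 66.7% positive, where 52.1% of all measured genes lay above 0. Mad2l2, a subunit of translesion polymerase zeta, was counted among the 42. The other 24, some of which may also act in the cycle, had a median of 0.00080, with 12 above and 12 below 0. This split was made after the data were seen and was not tested. By phase the median was 0.14 for the G1 cyclins and kinases (6 measured), 0.11 for the CDK inhibitors (4), 0.019 for the E2F factors (4), 0.082 for DNA replication (8), 0.059 for G2 and mitosis (16) and -0.081 for subunits of the anaphase-promoting complex (3). With 1 array per group the phases were not tested against each other.

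**Figure D2:**
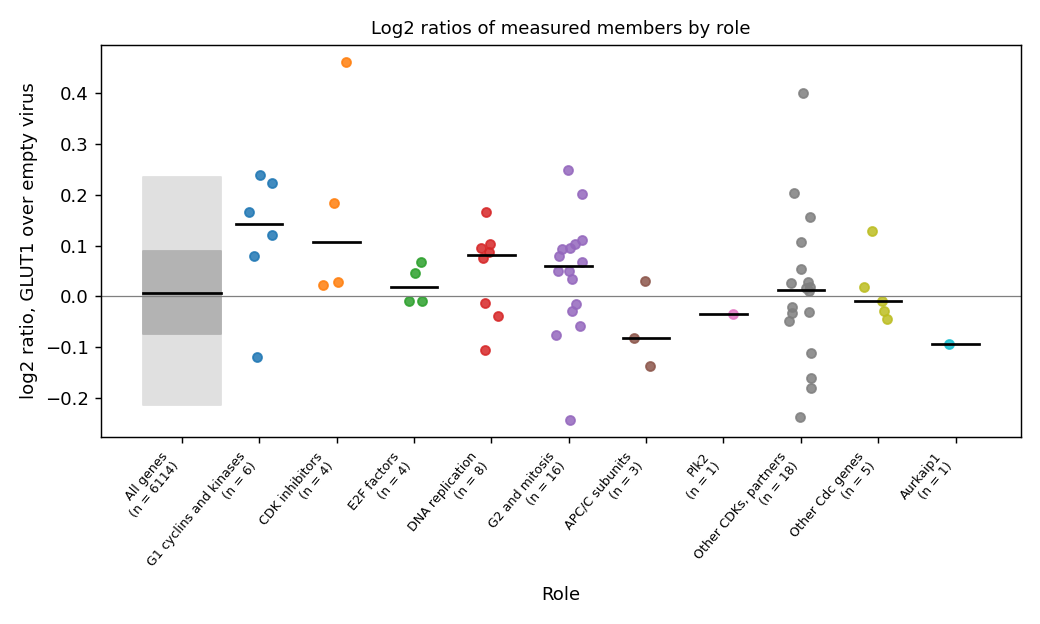
Log2 ratio of GLUT1 over empty virus (vertical axis) for each of the 66 measured members, grouped by role along the horizontal axis. Points are genes and black lines medians, and the grey box shows all 6114 measured genes, dark from the 25th to the 75th and light from the 5th to the 95th percentile (-0.21 to 0.23). The G1 group has the highest median, 0.14, and 1 of its 6 genes, Ccnd1, lies below 0 by its brightest probe set, while another of its probe sets gave 0.33.

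Phases were also set side by side by intensity. Probe sets bind with different strength, so an intensity ranks no gene above another and serves only to compare a gene between the arrays. The 8 replication genes read from 3161 to 14255 on the control and from 3330 to 13870 on the GLUT1 array. The 16 measured genes of G2 and mitosis read from 1178 to 8008 and from 1085 to 7594. The 6 measured G1 genes read from 545 to 9006 and from 643 to 9788, the 4 inhibitors from 461 to 4457 and from 634 to 4541, and the 4 E2F factors from 1509 to 1974 and from 1499 to 2037.

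**Figure D3:**
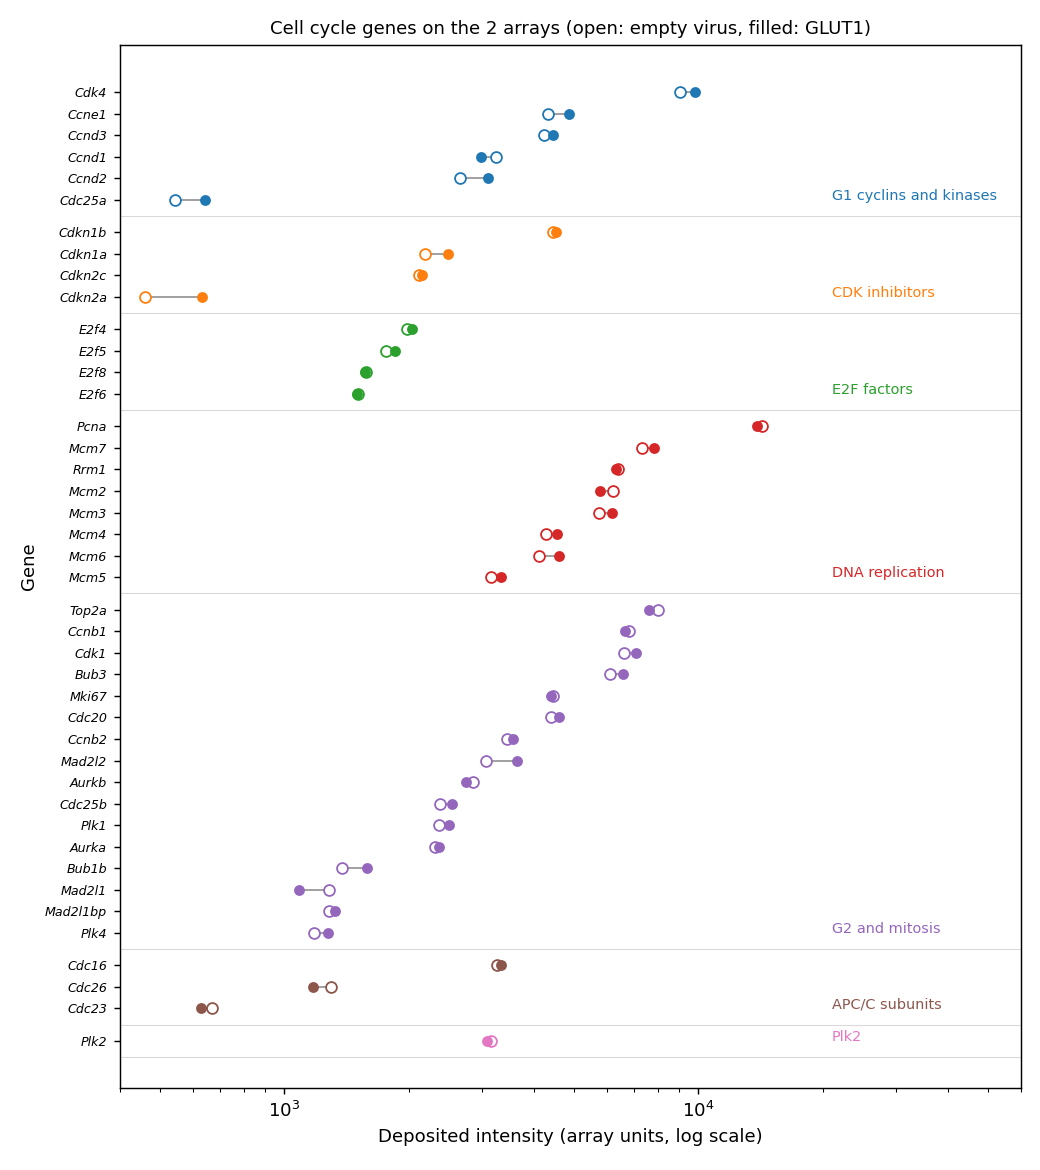
Deposited intensity (horizontal axis, log scale, array units) of the 42 measured genes on the cell cycle lists, grouped by role along the vertical axis. Open circles are the empty-virus array and filled circles the GLUT1 array, 1 array each. The circles of each gene lie close together, with the widest gap at Cdkn2a, 461 against 634.

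In G1, 5 of 6 measured genes were higher on the GLUT1 array, by at most 1.18-fold, where 52.1% of all measured genes were higher. So small a group was not tested. The D-type cyclin Ccnd2 was read at 2659 (control) and 3103 (GLUT1), a log2 ratio of 0.22. Its relative Ccnd3 read 4227 and 4462, a log2 ratio of 0.079. Cdk4, the kinase that D-type cyclins activate, read 9006 and 9788, a log2 ratio of 0.12 and 1.52 local spreads. Cyclin E1, which acts after the D-type cyclins, was read by Ccne1 at 4339 and 4863, a log2 ratio of 0.17 and 1.81 local spreads. Cdc25a, the phosphatase that removes inhibitory phosphates from CDKs, read 545 and 643, close to the brightness filter, with a log2 ratio of 0.24 and 1.36 local spreads. Its other probe set lay under the floor on both arrays, at 155 and 114, and has no ratio. The average of 0.12 over both probe sets therefore reflects the floor.

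Ccnd1, the cyclin most used as a mark of G1 entry, had 3 measured probe sets, and they did not point the same way. The brightest read 3240 and 2980, a log2 ratio of -0.12, and a dimmer one read 1381 and 1278, a log2 ratio of -0.11. The second in brightness read 1584 and 1995, a log2 ratio of 0.33. No direction for Ccnd1 can be drawn from probe sets that differ by 0.45. Cdk6 at 126 and 104 and cyclin E2 (Ccne2) at 55 and -27 lay under the floor on both arrays and have no ratio.

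All 4 measured CDK inhibitors had ratios above 0, where 52.1% of all measured genes did, and so small a group was not tested. Cdkn2a, whose locus encodes both the Cdk4 and Cdk6 inhibitor p16Ink4a and the p53 activator p19Arf, read 461 and 634, 1.38 times as high with a log2 ratio of 0.46. This was the highest ratio among the 66 genes, and it came from a dim probe set whose control value lay under the filter intensity of 507. The sources used here do not say which of the transcripts it reads. Cdkn1a, which encodes the p53 target p21, read 2184 and 2480, a log2 ratio of 0.18 and 1.78 local spreads, and its other probe set was dim at 377 and 374, which brought the average to 0.087. Cdkn1b, which encodes p27, read 4457 and 4541, a log2 ratio of 0.028, but a dim second probe set read 283 and 209, and the mean of both came to -0.20. Cdkn2c, which encodes p18Ink4c, read 2113 and 2145, a log2 ratio of 0.023. Below the filter lay Cdkn2b, the p15Ink4b gene, at 212 and 224 and the CDK phosphatase gene Cdkn3 at 0 and 80.

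The E2F factors on the array were those best known as repressors, and their ratios lay close to 0. E2f4 and E2f5, which act with pocket proteins in resting cells, read 1974 and 2037 (log2 ratio 0.047) and 1763 and 1847 (0.068). The factors that repress without the retinoblastoma protein, E2f6 and E2f8, read 1509 and 1499 (log2 ratio -0.0084) and 1575 and 1564 (-0.0089). None reached 1 local spread.

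DNA replication genes had 5 positive and 3 negative log2 ratios among 8, where 52.1% of all measured genes lay above 0. The 6 subunits of the MCM helicase, which unwinds DNA at the fork, had log2 ratios with a median of 0.092, and 5 were positive. Mcm6 read 4111 and 4611, a log2 ratio of 0.17 and 1.78 local spreads. Mcm3 read 5760 and 6184 (log2 ratio 0.10) and Mcm7 7301 and 7795 (0.096). Mcm4 at 4292 and 4556 and Mcm5 at 3161 and 3330 had log2 ratios of 0.087 and 0.076, each under 1 local spread. Mcm2, a subunit of the same ring, went the other way at 6229 and 5781, a log2 ratio of -0.11 and 1.17 local spreads. Pcna, the sliding clamp of the replicative polymerases, read 14255 and 13870, a log2 ratio of -0.038. Rrm1, the large subunit of ribonucleotide reductase, read 6378 and 6313, a log2 ratio of -0.014.

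Among the mitotic genes Mad2l2, Mad2l1 and Bub1b lay farthest from 0, and not on the same side. The checkpoint complex of Mad2l1, Bub1b and Bub3 holds Cdc20 back from the anaphase-promoting complex until all chromosomes are attached. Mad2l1 read 1285 and 1085, a log2 ratio of -0.24 and the lowest of the 66 genes, at 1.64 local spreads. Bub1b, its partner in the complex, read 1374 and 1579, a log2 ratio of 0.20 and 1.59 local spreads. Bub3 read 6133 and 6585, a log2 ratio of 0.10. Cdc20 was read at 4400 and 4609 by its brightest probe set, a log2 ratio of 0.068. Of the other 3 measured probe sets of Cdc20, those with suffixes for possible cross-hybridisation gave 0.16 and 0.26 and the remaining one -0.15. Mad2l2, a subunit of translesion polymerase zeta that shares the checkpoint protein's fold, read 3073 and 3650, a log2 ratio of 0.25. Mad2l1bp, which helps to switch the checkpoint off, read 1280 and 1324, a log2 ratio of 0.050.

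The engines of mitosis and the usual proliferation marks lay within 1.14 local spreads of 0. Cdk1, the mitotic kinase, read 6619 and 7060, a log2 ratio of 0.094. Its cyclins Ccnb1 and Ccnb2 read 6783 and 6646 (log2 ratio -0.028) and 3447 and 3567 (0.051). Cdc25b, the phosphatase that starts Cdk1 activation, read 2379 and 2538, a log2 ratio of 0.095. Mki67, the proliferation antigen that coats mitotic chromosomes, read 4447 and 4398, a log2 ratio of -0.015. Top2a, the topoisomerase that untangles sister chromatids, read 8008 and 7594, a log2 ratio of -0.075. Of the mitotic kinases, Plk1 read 2367 and 2499 (log2 ratio 0.080), the centriole kinase Plk4 1178 and 1272 (0.11), Aurka of the spindle poles 2307 and 2362 (0.035) and Aurkb of the chromosomal passenger complex 2855 and 2739 (-0.059). Aurkc, best known from meiosis, lay below the filter at 461 and 403.

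Subunits of the anaphase-promoting complex, the ubiquitin ligase that ends mitosis, read 3269 and 3336 for Cdc16 (log2 ratio 0.031), 667 and 630 for Cdc23 (-0.081) and 1293 and 1175 for Cdc26 (-0.14). The second measured probe set of Cdc26 gave -0.14 and that of Cdc23 0.080. The phosphatase gene Cdc14a was dim at 290 and 259. Plk2, a polo-like kinase induced by serum and stress, read 3159 and 3083, a log2 ratio of -0.034.

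Genes listed as other CDKs and their partners centred near 0. The log2 ratios of the 18 measured had a median of 0.013 and an SD of 0.15. Cdk20 was farthest, at 479 and 632 with a log2 ratio of 0.40 and 1.94 local spreads, and like Cdkn2a it passed the filter through its GLUT1 value, since its control value lay under 507. Cdk18 lay at the other end, at 949 and 804 with a log2 ratio of -0.24. The Mediator kinases Cdk8 and Cdk19 read 1161 and 1038 (log2 ratio -0.16) and 1232 and 1140 (-0.11), both lower on the GLUT1 array. Kinases of RNA polymerase II were Cdk7, at 2738 and 2755 (log2 ratio 0.010), Cdk9, at 3641 and 3563 (-0.030), and Cdk13, whose probe sets opposed each other at -0.18 and 0.27. Cdk12, of the same group, was dim at 243 and 326. Cdk5, best known from neurons, read 1460 and 1437, a log2 ratio of -0.022, and its activators Cdk5r1 (104 and 146) and Cdk5r2 (255 and 324) were dim. Cdk5rap2 of the centrosome gave 0.20 and -0.13 from its 2 measured probe sets, Cdk5rap3 read 1414 and 1574 (log2 ratio 0.16), and Cdk5rap1 was dim at 54 and 65. Cdk14 had a log2 ratio of 0.11, Cdk11b of 0.053, Cdk10 of 0.028, Cdk2ap2 of 0.027, Cdk2ap1 of 0.018, Cdk16 of 0.016, Cdk17 of -0.032 and Cdkn2aipnl of -0.048, each under 1 local spread.

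The remaining Cdc genes serve protein turnover, folding, splicing and translation. Cdc34, a ubiquitin-conjugating enzyme that acts with SCF ligases, was read by 3 measured probe sets. They gave log2 ratios of 0.13 (2783 and 3040), 0.038 (2627 and 2695) and 0.56 (502 and 742), and the last, the dimmest, was the highest ratio of any measured probe set of these genes. The Hsp90 cochaperone Cdc37 read 5020 and 4986, the splicing factors Cdc5l and Cdc40 read 3293 and 3227 and 587 and 594, and Cdc123, which helps to assemble the initiation factor eIF2, read 1202 and 1164. Their log2 ratios ran from -0.045 to 0.018. Aurkaip1, a mitochondrial ribosome protein that the name rule took in, read 2389 and 2236, a log2 ratio of -0.094.

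Genes with at least 2 measured probe sets show how far a single ratio can be trusted. Among the 10 such members, the brightest and the second probe set had the same sign in 5 and opposite signs in 5. The same count was not made over the whole array, so it has no background. Over 702 genes of the whole array with at least 2 measured probe sets, the SD of a single log2 ratio, taken from the difference between the 2 brightest, was 0.13. Probe sets of 1 gene can read different transcripts, so this includes more than noise. For scale, the SD of the log2 ratios was 0.13 over the 66 measured members and 0.14 over all measured genes.

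**Figure D4:**
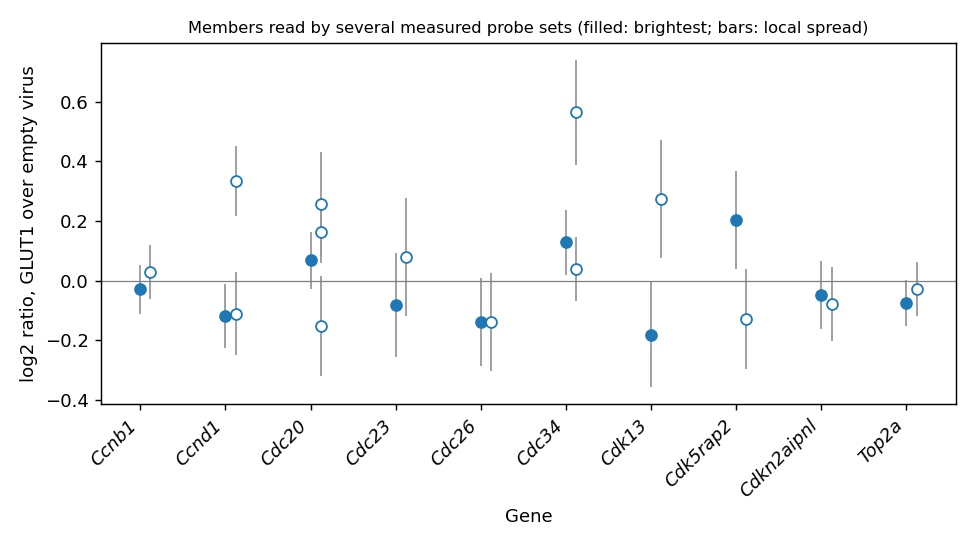
Log2 ratio of GLUT1 over empty virus (vertical axis) of every measured probe set of the 10 members with at least 2 (horizontal axis). Filled circles are the brightest probe set of a gene, open circles the others, and bars 1 local spread either way. Ccnd1, Cdk13 and Cdk5rap2 have probe sets well apart on opposite sides of 0, and those of Cdc26 and Top2a lie together.

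Other genes of the same processes were described from fixed lists. All 28 further replication and nucleotide supply genes with a probe set, of 40 listed, were measured, and their log2 ratios had a median of 0.018, with 16 positive, 12 negative and none at 2-fold. For this list and those after it, the share above 0 over all measured genes was 52.1%. The highest were Pold1, the catalytic subunit of polymerase delta, at 1345 and 1509 (log2 ratio 0.17), and Gins3 at 709 and 793 (0.16). The lowest were Gins1, a partner of Gins3 in the GINS complex of the replicative helicase, at 1106 and 895 (log2 ratio -0.30), and Pole, the catalytic subunit of polymerase epsilon, at 1503 and 1262 (-0.25). Gins4, the other GINS subunit measured, named after its value was seen, read 2136 and 1927 (log2 ratio -0.15). Beyond 2 local spreads was 1 of the 28 (3.57%), with a background of 5.48%. That gene, Rpa3, read 3751 and 3172 (log2 ratio -0.24), at 2.54 local spreads.

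All 20 further spindle, kinetochore and cytokinesis genes with a probe set, of 42 listed, were measured, and their log2 ratios had a median of 0.061, with 13 positive and 7 negative. Birc5, which encodes survivin of the passenger complex, read 3366 and 3848 (log2 ratio 0.19), and Espl1, the separase gene, 2838 and 3214 (0.18). At the low end were Smc4 of condensin at 1044 and 881 (log2 ratio -0.24) and the CDK subunit gene Cks2 at 7953 and 7328 (-0.12). More than 1 local spread from 0 were 12 of these 20 genes (60.0%), where the background was 31.3%. Of the 28 replication genes above, 10 (35.7%) lay that far from 0. Among the members, 5 of the 16 of G2 and mitosis did (31.2%). So did 5 of the 6 measured G1 genes, 4 of the 8 DNA replication genes and 2 of the 4 CDK inhibitors. Of these, Ccnd1 and Mcm2 lay below 0. None of the 4 E2F factors or the 3 subunits of the anaphase-promoting complex lay that far from 0. Groups this small were not tested. The 12 spindle, kinetochore and cytokinesis genes ran from 1.02 local spreads for Foxm1, named after its value was seen, to 2.04 for Birc5.

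Of 16 genes of the retinoblastoma family, p53 targets, checkpoint kinases and antiproliferative factors, 13 were measured. Of these, 3 exceeded 1 local spread (23.1%, background 31.3%) and 2 exceeded 2 (15.4%, background 5.48%). The 2 were Phlda3 at 2.15 and Ccng1 at 2.03 local spreads, on opposite sides of 0. The log2 ratios had a median of -0.015, with 5 positive and 8 negative. The p53 target Phlda3 read 2521 and 2968 (log2 ratio 0.24) and Myc, the growth-promoting transcription factor, 884 and 991 (0.17). The p53 target Ccng1 read 4988 and 4383 (log2 ratio -0.19) and Wee1, the kinase that holds Cdk1 inactive, 867 and 767 (-0.18). Of other p53 targets on this list, chosen after their values were seen, Mdm2 read 3213 and 3358 (log2 ratio 0.065) and Gadd45a 4128 and 4191 (0.023). The retinoblastoma gene Rb1 lay below the filter at 379 and 308 and its relative Rbl2 at 257 and 187.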

How the data were processed

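The values analysed are linear intensities as deposited, 1 for each probe set on each array. The sources used here do not give their summary, background or between-array methods. Per the labels, 5 µg of total RNA was made into biotinylated cRNA. The deposited intensities had a median of 508 on both arrays and means of 1500 (control) and 1497 (GLUT1), so they had been made nearly equal already and cannot show a change in total mRNA. Detection calls were not used here. With Python 3.11.15 and pandas 2.3.3, the GLUT1 array was rescaled by -0.0012 on the log2 scale, so that the median ratio of bright probe sets was 0, then floored, put on the log2 scale and filtered as the text states. Probe sets naming several genes or none were left out. Gene names came from the platform annotation, and the gene IDs of all 76 members were in a current rat table (GRCr8). Genes were called at 2-fold. Every measured member was named, and of the other lists the 2 measured genes farthest from 0 in each direction. The members and lists were chosen with earlier results of these data known. The steps were tested on simulated data. Alternatives were other scalings, floors, filters, thresholds and probe set rules.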

Additional observations from a re-analysis of the deposited data

How the results depend on the processing

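No paired analysis was possible because there is a single array per group. The count of 0 members at 2-fold, higher or lower, was also 0 at 1.5-fold and with every other scaling, floor, filter and probe set rule tried. The median over measured members ran from 0.025 to 0.059, where the highest value left out members off the cell cycle lists, a choice made after seeing the data. The anaphase-promoting complex median ran from -0.11 to 0.031, the latter from the 1 gene bright enough for the 75th percentile. The inhibitor median of 0.11 ran down to 0.028, at the 75th percentile filter, and was 0.054 with no filter and 0.055 with averaged probe sets. With no filter, genes under the floor on both arrays, such as Cdkn3, Cdk6 and Ccne2, entered the medians as a ratio of 0. The no-filter medians of the inhibitors and of G1 therefore partly reflect the floor. The medians of the other roles kept their sign. Rescaling changed the sign of no measured member. A filter alters only which genes are counted, and the floors tried left the ratio of every measured member as it was. The floors and filters are therefore no check on single ratios. Averaging all probe sets changed the sign of 4 of 66 members: Ccnb1, Ccnd1 (0.035), Cdk13 (0.014) and Cdkn1b (-0.20). It brought Cdc34 to 0.24, Cdk5rap2 to 0.038, Cdc25a to 0.12, Cdkn1a to 0.087 and Cdc20 to 0.14. For Cdc25a that value reflects the floor, under which its other probe set lay on both arrays. Taking the second measured probe set, chosen after seeing the data, changed the sign of 5 of 10. Cdc25a, Cdkn2a and Cdk20 lie near the brightness filter, where the local spread is widest. The deposited values were already equalised, so the rescaling settings could alter little.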
